A study of Canis lupus familiaris with 34 samples.

Results

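The genes described here are a panel of 10 T and B lymphocyte genes, read in RNA-seq of the mitral valve of 34 Cavalier King Charles Spaniels. The T cell genes are CD3D, CD3E, CD3G, CD2, CD8A and LCK, the B cell genes are CD79A, CD79B and MS4A1, and JCHAIN marks plasma cells. A gene was taken by its symbol, from the canine RefSeq feature where one is listed and otherwise from the human XenoRefSeq feature, and 9 of the 10 genes have a feature among the 23768 in the count table. CD3G has none and is not analysed here. All 9 had a sum of at least 100 counts over the dogs and are among the 19568 features tested. The 2 groups follow the deposited labels of cases and controls. In the 10y-MMVD-CHF group, 6 females and 9 males had congestive heart failure (CHF) caused by myxomatous mitral valve disease (MMVD), a degeneration of the valve leaflets. In the 10y-noCHF group, 10 females and 9 males had no CHF. The dogs were privately owned and about 10 years old. Most of the 10y-noCHF dogs had MMVD at an earlier stage, so their valves are not a healthy reference. The tissue was whole valve, 1 sample for each dog.

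T cells recognise antigen with a receptor that signals through the CD3 chains, and B cells do so with a membrane antibody that signals through CD79A and CD79B. Plasma cells descend from B cells and secrete antibody, and the J chain joins the antibody units of IgM and IgA. A valve leaflet consists mainly of interstitial cells and matrix under an endothelium, and its resident leukocytes are mostly macrophages. In bulk tissue, fewer cells of a type and less RNA per cell cannot be told apart.

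Total counts per dog ranged from 46185256 to 82361245. The mean log2 CPM (counts scaled to a common library size after TMM normalization) of 9 valve interstitial markers was between 10.30 and 11.59 in every dog. The mean log2 CPM of 19 cardiomyocyte markers ran from 0.23 to 10.79, that of endothelial markers from 4.61 to 6.24 and that of macrophage markers from 5.19 to 6.85. CAV614 (10y-MMVD-CHF male) had the highest mean of the red blood cell markers, 5.48, and CAV1047 (10y-MMVD-CHF female) the highest mean of the cardiomyocyte markers. The study does not name these 2 dogs. They had stood apart in earlier work on the deposited data, and results are also given without them. None of the 11 marker lists of other cells differed between the groups at an FDR below 0.1 (permutation of CHF labels within each sex, two-sided), and the smallest p was 0.101, for endothelium. Of the single markers only VWF, of endothelium, was called (log2 fold change 1.40, edgeR, FDR = 0.0678). At an unadjusted p below 0.05 there were 8 more, a level that 6.31% of all tested features reached. With VWF, those higher in CHF were 2 of 9 endothelial, 1 of 12 macrophage and 1 of 6 red blood cell markers. Those lower in CHF were 3 of 6 mast cell, 1 of 19 cardiomyocyte and 1 of 5 adipocyte markers. Among them were CD14, of macrophages, at 0.45 (p = 0.00485, FDR = 0.480), ALAS2, of red blood cells, at 0.88 (p = 0.0138), and the mast cell markers CPA3 at -2.53 (p = 0.0111) and TPSAB1 and TPSB2, whose features have identical counts, at -2.56 (p = 0.0112). Their part in the values of the lymphocyte genes was not tested.

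CD3D and CD3E encode 2 chains of the CD3 complex. The CD3E feature holds the exons of the gene at chr5:15428918-15440047 on the minus strand, in 8 intervals of 1267 bases in all (canFam4). It had 3222 counts over the 34 dogs, with a median of 58. A second CD3E feature, a human XenoRefSeq alignment of 275831 bases, spans 11 other symbols, among them KMT2A, ARCN1 and UBE4A. It held 971648 counts, 302 times as many as the exons, and its log2 CPM was hardly related to theirs across dogs (r = 0.077, a description over 34 dogs). Only the exon feature was used. CD3D, on the plus strand at chr5:15418107-15422004, was read from a XenoRefSeq feature that holds introns as well and had 667 counts, with a median of 10. All of its bases lie within the long CD3E alignment and none within the CD3E exon feature.

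CD2, a T cell and NK cell adhesion receptor, lies at chr17:54699437-54711815 on the plus strand and had 6532 counts. LCK, the kinase that phosphorylates the CD3 chains, lies at chr2:68339184-68362908 on the minus strand and had 3401 counts. CD8A, the co-receptor of cytotoxic T cells, lies at chr17:38679135-38683623 on the plus strand and had 264 counts in its exons. CD2 and LCK had at least 12 counts in every dog, while 6 dogs had no CD8A count, 8 had none of CD3D and 1 had none of CD3E. A count of 0 allows up to 3 counts, between 0.0359 and 0.0769 CPM at the depths of these dogs. These limits cover counting error only, and since both reads of a pair were counted, 2 counts are often 1 fragment.

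CD79A, at chr1:113151210-113154758 on the minus strand, had 1567 counts in its exons and at least 2 in every dog. Its partner CD79B, at chr9:15081837-15084816 on the plus strand, had 298 counts and 9 dogs at 0. MS4A1, which encodes the B cell antigen CD20, lies at chr21:51664247-51675690 on the plus strand and had the fewest counts of the panel, 236, and 16 dogs at 0. JCHAIN, at chr13:61022261-61030339 on the minus strand, had 192631 counts, between 999 and 26123 per dog. None of these features shares bases with a feature of another symbol.

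Levels per length were compared only among features of one kind, since a XenoRefSeq feature counts introns and an exon feature does not. Among XenoRefSeq features the share of introns was not measured, and lengths ran from 2980 bases (CD79B) to 23725 (LCK). Their values per kb are thus not an order of expression: without scaling for length, LCK had a mean of 1.58 CPM and CD3D 0.307. Among the exon features, CD3E had 1.16 ± 1.73 CPM per kb (mean ± SD over 34 dogs), CD79A 0.676 ± 0.532, CD8A 0.133 ± 0.124 and MS4A1 0.0930 ± 0.137. Each gene's difference from the next in this order was smaller than the SD of the higher one, except between CD79A and CD8A. Among the XenoRefSeq features, JCHAIN had 10.96 ± 11.8 CPM per kb and CD2 0.248 ± 0.165. CD3D, LCK and CD79B followed with 0.0787 ± 0.141, 0.0668 ± 0.0791 and 0.0467 ± 0.0448, and these 3 lay within one another's spread. JCHAIN stood apart: its lowest dog had 18.2 CPM, above the highest dog of CD2, at 9.95 CPM, although its feature is the shorter of the pair.

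The main comparison asked whether these genes differ between valves of dogs with CHF and dogs without. No member was called in the comparison of 10y-MMVD-CHF with 10y-noCHF (edgeR, sex as a fixed effect, FDR below 0.1), where 0.118% of all tested features were called. DESeq2 called none of them either, against 0.327% of all features. At an unadjusted p below 0.05 edgeR gave 1 of 9 members, JCHAIN, against 6.31% of all features, and 3.51% of all features with lower values in CHF as for JCHAIN. The median log2 fold change of the 9 members was -0.09 and that of all features 0.01.

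JCHAIN had the lower values in CHF. Without CHF it ranged from 24.1 CPM in CAV748 to 441 in CAV576 around a median of 68.0. With CHF it ranged from 18.2 CPM in CAV1259 to 174 in CAV1097 around a median of 30.9. The groups overlapped over most of their range, and 4 of 15 dogs with CHF were above the 10y-noCHF median. The means were 58.4 ± 54.3 CPM (SD, n = 15) with CHF and 112 ± 114 CPM (SD, n = 19) without. The log2 fold change was -0.93 with a standard error of 0.44 and a 95% interval of -1.81 to -0.04 (edgeR, p = 0.0405, FDR = 0.778), so the difference did not pass the threshold. DESeq2 gave -0.93 (p = 0.0287, FDR = 0.631). It was -0.78 in females alone and -1.05 in males alone. Leaving out each dog in turn gave values between -1.18 and -0.68, and p stayed below 0.05 in 18 of 34 cases. The values nearest to 0 came without CAV576, -0.68, and without CAV749, the next highest dog for JCHAIN.

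The T cell genes showed no common direction. CD3E ranged from 0 to 11.2 CPM without CHF (median 0.692) and from 0.103 to 7.59 CPM with CHF (median 0.912). Both groups had 1 dog far above the others, CAV743 in the first and CAV1872 in the second. The log2 fold change was 0.23 with a 95% interval of -0.91 to 1.36 (edgeR, FDR = 0.972). Its size and p rested on these dogs: without CAV743 it was 0.97 (p = 0.0386, FDR = 0.726), and without CAV1872 it was -0.26.

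CD2 ranged from 0.868 to 9.95 CPM without CHF and from 1.06 to 9.38 CPM with CHF, with medians of 2.50 and 3.04. The log2 fold change was 0.27, with an interval of -0.33 to 0.87, the narrowest of the panel. LCK ranged from 0.441 to 10.99 CPM without CHF and from 0.227 to 5.18 CPM with CHF, with medians of 1.11 and 1.32. Its log2 fold change was -0.12 with an interval of -0.93 to 0.70, and without CAV743 it was 0.39. The medians and the fitted changes of LCK thus differed in sign, CAV743 holding 34.9% of the summed CPM of its group.

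CD3D had medians of 0.174 CPM without CHF and 0.0701 CPM with CHF, with 3 and 5 dogs at 0. Its highest values were 2.71 CPM in CAV743 and 1.91 CPM in CAV1872. The log2 fold change was 0.01, with a wide interval of -1.72 to 1.75. CD8A had a median of 0.106 CPM without CHF and 0.0701 CPM with CHF, and its highest dog was CAV749 at 0.490 CPM. Its log2 fold change was -0.78, with an interval of -1.92 to 0.36 (edgeR, p = 0.174, FDR = 0.869).

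The B cell genes were as variable. CD79A ranged from 0.169 to 2.07 CPM without CHF and from 0.0513 to 1.996 CPM with CHF, with medians of 0.592 and 0.431. The groups overlapped almost fully, and the log2 fold change was -0.09 with an interval of -0.86 to 0.69. CD79B had medians of 0.118 and 0.124 CPM, and its log2 fold change was -0.22 with an interval of -1.52 to 1.08. MS4A1 had 10 of 19 dogs at 0 without CHF and 6 of 15 with CHF. Its highest dogs were CAV865 at 0.676 CPM without CHF and CAV1872 at 0.465 CPM with CHF, and the interval of its log2 fold change, -1.39 to 2.06, was wide. For CD79B and MS4A1 the interval holds a 2-fold difference in either direction, so a change of that size could not be resolved with these counts and this spread between dogs.

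**Figure D1:**
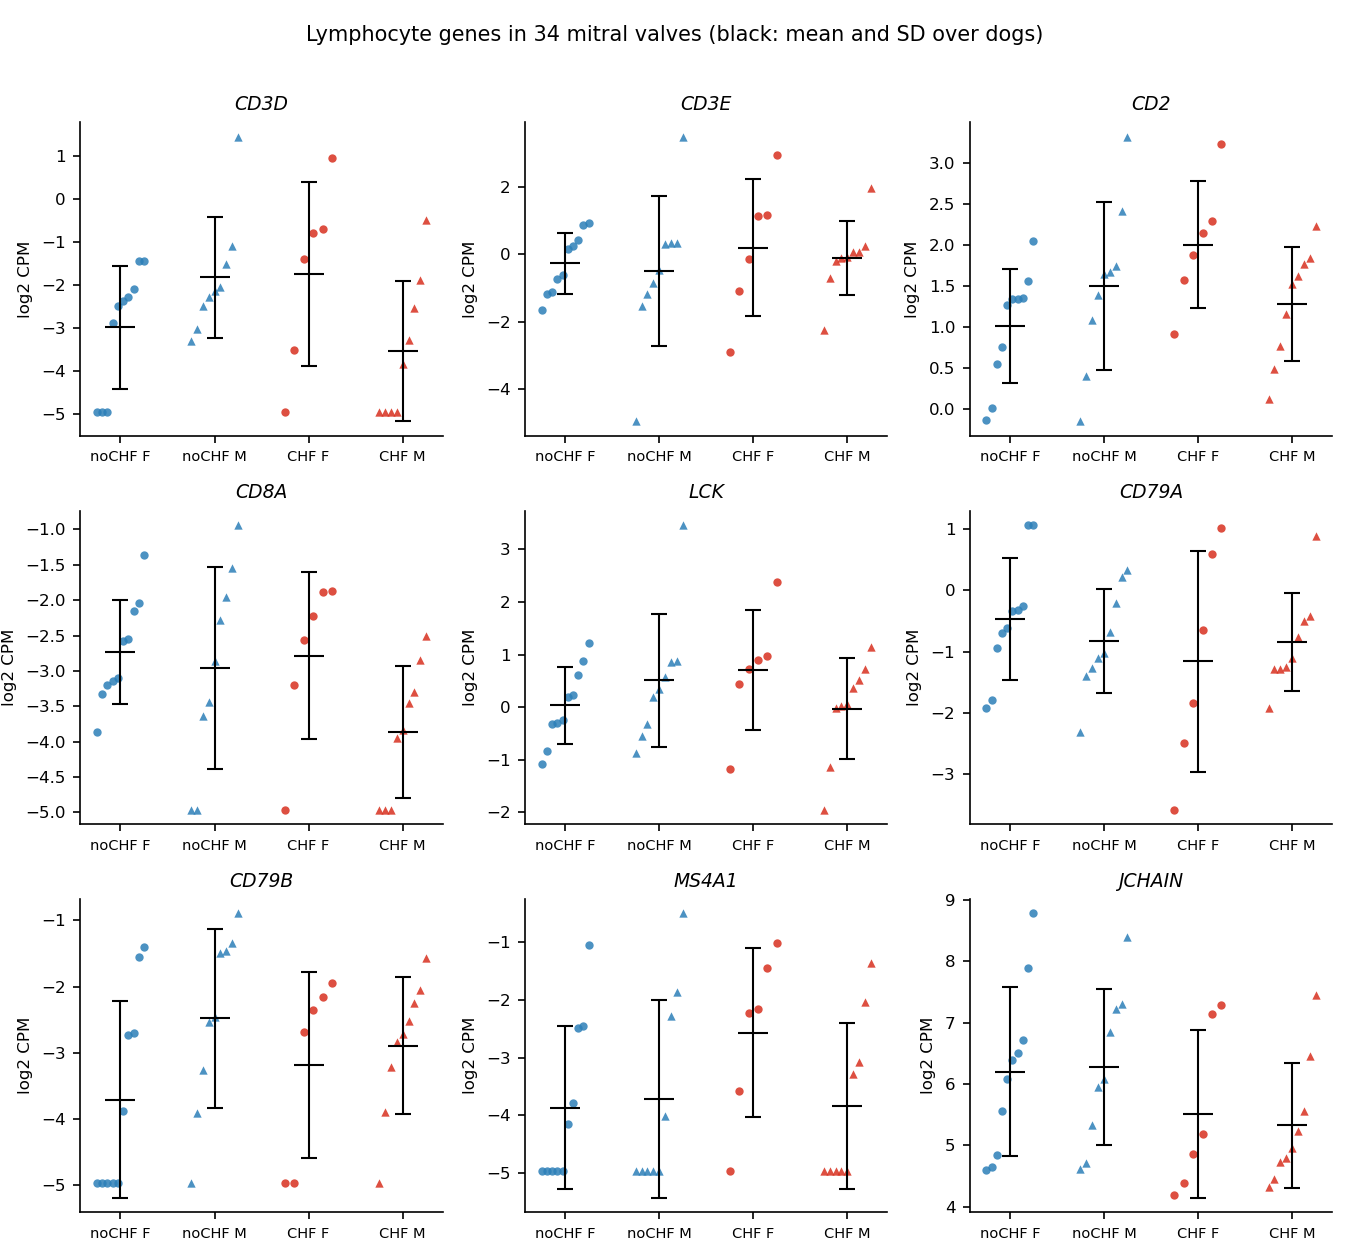
Log2 CPM of each of the 9 lymphocyte genes in every dog, by CHF status and sex (F, females; M, males), with the mean and SD in black. Dogs with 0 counts lie at the bottom, at -4.96. The groups overlap for every gene, JCHAIN has the highest values, and single dogs such as CAV743 among the 10y-noCHF males stand high for CD3D, CD3E, CD2 and LCK.

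The biological coefficient of variation between dogs was above its trend for the abundance in all 9 members. It was close to the trend for CD8A (1.02 times) and CD79A (1.03 times), and 3.03 times the trend for JCHAIN. This ratio placed the members at percentiles 76.8 to 98.7 of all tested features, CD8A being the lowest and JCHAIN the highest. Some lists of other cells were as high, with a median percentile of 99.6 for cardiomyocyte markers, while valve interstitial markers had 60.9. The sum over dogs was concentrated in a few of them: the 3 highest dogs held 50.9% of the summed CPM of CD3D, 45.2% of CD3E, 40.97% of MS4A1 and 33.7% of JCHAIN, against 23.6% for CD2. Of the dogs, CAV1196 was among the 5 highest for 7 of the 9 genes, CAV1872 and CAV743 for 6, and CAV614 and CAV749 for 4. These 5 dogs belong to both groups, 3 of 15 with CHF and 2 of 19 without.

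The highest dog was not the same for the T cell genes CD3D, CD3E, CD2 and LCK as for CD79A and JCHAIN. Some high dogs were shared. CAV743 had 649 counts of CD3E, 576 of CD2, 636 of LCK and 157 of CD3D, the highest CPM of each, but only 2 counts of CD79B. It also had the highest mean log2 CPM of 6 pan-leukocyte markers, 6.03. CAV1872 came next, with 555 counts of CD3E, 686 of CD2, 379 of LCK and 140 of CD3D. Both were also among the 5 highest dogs for B or plasma cell genes. CAV743 was so for JCHAIN (159 CPM), and CAV1872 for CD79A (1.996 CPM) and MS4A1 (0.465 CPM). CAV576 had the highest JCHAIN and the highest CD79A, 2.07 CPM, with 62 counts of CD3E (median over the dogs 58) and none of MS4A1.

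**Figure D2:**
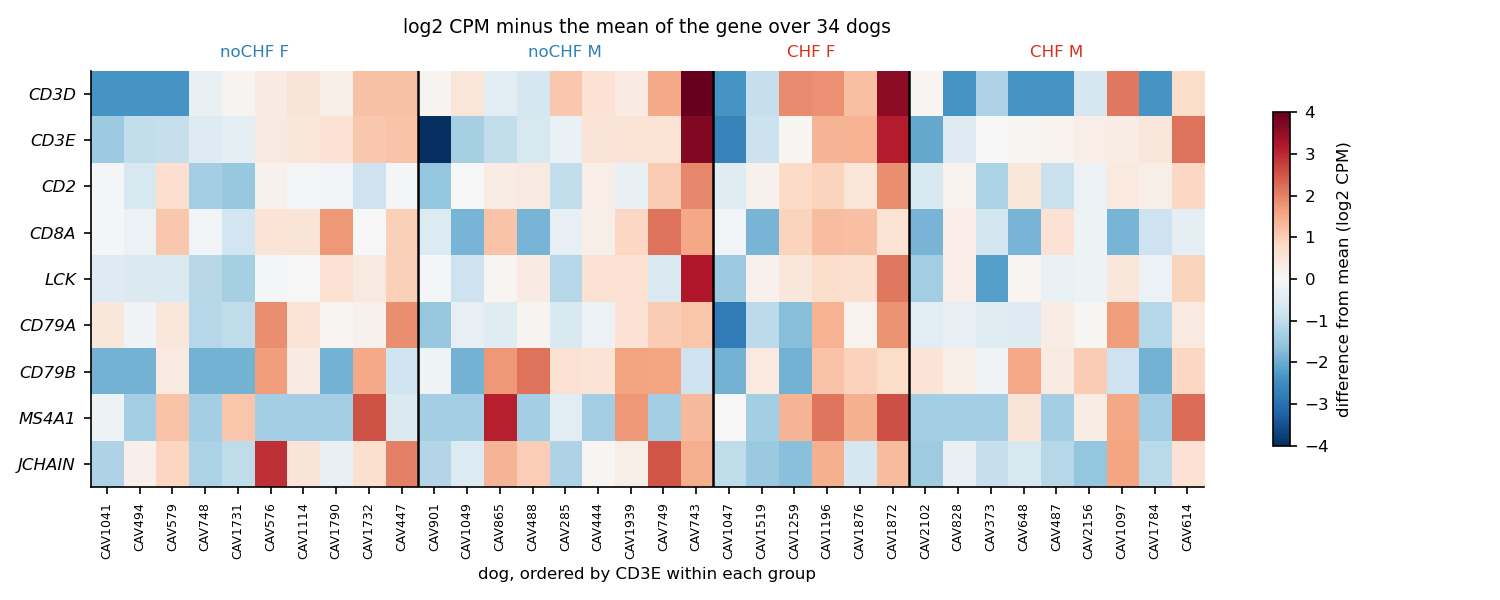
Difference of each dog's log2 CPM from the gene's mean over 34 dogs, for 9 genes (rows) and 34 dogs (columns, ordered by CD3E within each group of CHF status and sex). Values beyond 4 in either direction are drawn at the end of the scale. CAV743 and CAV1872 are red for CD3D, CD3E, CD2 and LCK, and CAV576 is reddest for JCHAIN.

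Across dogs the levels of the members were related. Pairs were compared on log2 CPM after the means of the 4 groups of status and sex were removed, and p was obtained by permutation within those groups (two-sided, 100000 resamples), adjusted over the 36 pairs of 9 genes. Pearson's r was positive in all 36 pairs, between 0.099 and 0.791 with a median of 0.419, and 26 pairs had an FDR below 0.1. Spearman's rho gave 26 pairs as well. The relation was not particular to lymphocyte genes. The median rho with CD3E was 0.617 for the other T cell members, 0.497 for the B and plasma cell members and 0.515 for 6 pan-leukocyte markers. Over all tested features it was 0.007. With JCHAIN the median rho was 0.576 for the T cell members, 0.582 for the pan-leukocyte markers and -0.008 over all tested features. All 36 pairs were also positive within the dogs with CHF, within the dogs without CHF, and after the 2 dogs farthest from the median of the first gene were left out. Without CAV614 and CAV1047, 17 pairs had an FDR below 0.1, and CD3D with CD79B had r = -0.031. This pair also turned negative on the scale of log2(CPM + 1), at -0.122, and the other 35 pairs were positive under each of these settings.

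The closest pair joined the B cell receptor chain CD79A and JCHAIN, with r = 0.791 and rho = 0.749 (permutation p = 1e-05 for both, the smallest 100000 resamples can give, FDR = 0.00036 and 0.00018). It was 0.800 among the dogs with CHF, 0.822 among those without and 0.814 when CAV1047 and CAV576 were left out. CD2 and LCK had r = 0.718 (permutation p = 5e-05, FDR = 0.00036) and rho = 0.613 (p = 0.00032, FDR = 0.00144), with 0.912 and 0.596 within the groups and 0.596 without CAV743 and CAV1872. CD3E and LCK had r = 0.707 (permutation p = 0.00014, FDR = 0.00072) and rho = 0.723 (p = 1e-05, FDR = 0.00018), and 0.712 without CAV901 and CAV743. The dogs highest for CD3E, CAV743 and CAV1872, were also the highest for LCK.

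**Figure D3:**
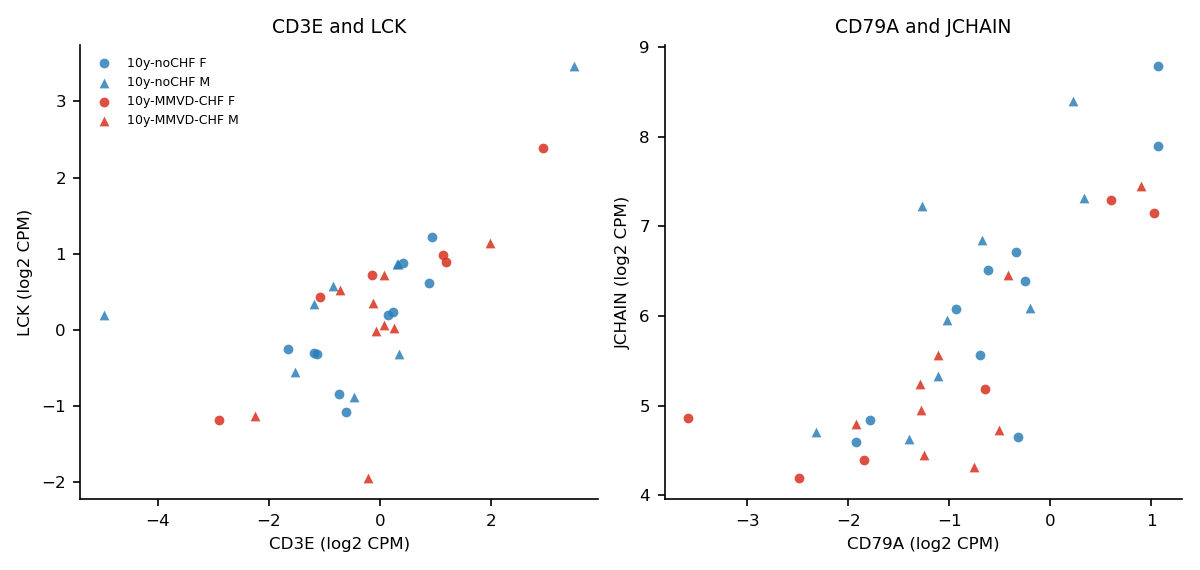
Log2 CPM of LCK against CD3E (left) and of JCHAIN against CD79A (right), 1 point for each of 34 dogs, by status (colour) and sex (shape). High values go together in both panels, and the dog at the far left of the first panel is CAV901, which had 0 counts of CD3E.

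T cell and B cell genes were not separate in this respect. Of the 10 pairs of T cell genes 9 had an FDR below 0.1, with a median r of 0.510, and of the 15 pairs of a T cell and a B cell gene 8 had, with a median of 0.351. JCHAIN passed with each of the 5 T cell genes, with r between 0.359 for CD8A and 0.671 for CD2. CD3E and CD79A, a T cell and a B cell gene, had r = 0.671 (permutation p = 4e-05, FDR = 0.00036) and rho = 0.695 (p = 7e-05, FDR = 0.000504), and 0.658 without CAV901 and CAV743. CD79B and MS4A1, each with a median of at most 8 counts, had the lower values, and CD79B with CD3D the lowest, 0.099. The median r of MS4A1 with the other members was 0.682 among the dogs with CHF and 0.164 among those without. This difference was not tested, and 10 of the 19 dogs without CHF had 0 counts.

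**Figure D4:**
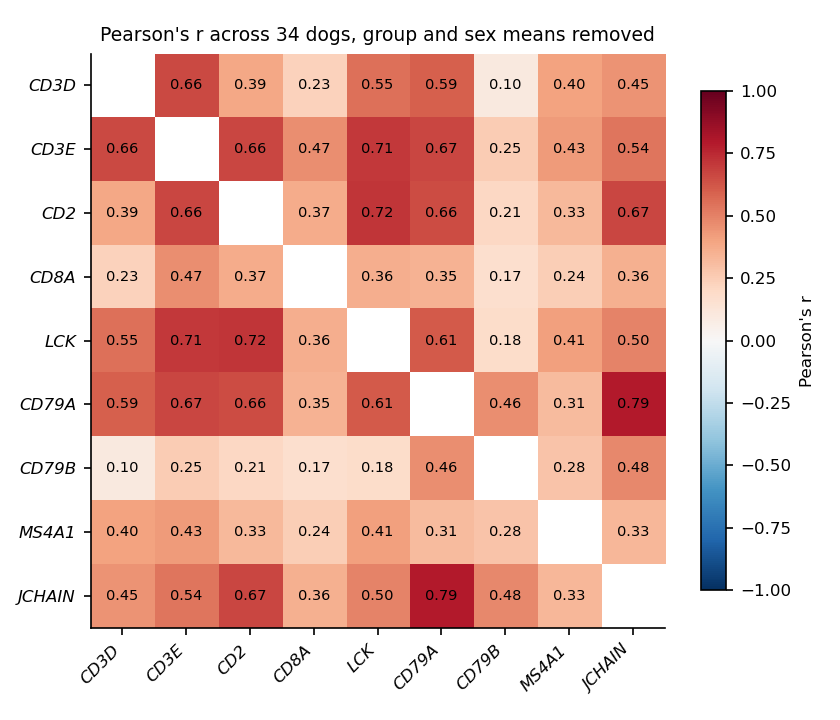
Pearson's r between each pair of the 9 genes across 34 dogs, on log2 CPM with the means of status and sex removed. All values are positive, from 0.10 for CD3D and CD79B to 0.79 for CD79A and JCHAIN, and the rows of CD79B, MS4A1 and CD8A are the palest.

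Marker genes of other cells moved with some members. In the same test over 27 relations of 9 genes with 3 marker lists, 6 had an FDR below 0.1. CD2 followed 12 macrophage markers with r = 0.753 and rho = 0.700 (permutation p = 1e-05 and 2e-05, FDR = 0.00027 and 0.00054), and 0.712 without CAV1731 and CAV748. CD79A, LCK, JCHAIN and CD3E followed the macrophage markers with r of 0.570, 0.521, 0.482 and 0.466 (permutation FDR between 0.00958 and 0.0377). By rho only CD2 and CD79A passed with macrophages. CD79A was lower where 19 cardiomyocyte markers were higher, with r = -0.494 and rho = -0.464 (permutation p = 0.00389 and 0.00917, FDR = 0.0263 and 0.0981). No member passed with the red blood cell markers. Without CAV614 and CAV1047, 3 of the 27 passed, CD2, CD79A and JCHAIN, each with macrophages. The macrophage mean was 6.32 ± 0.36 log2 CPM (SD, n = 15) with CHF and 6.12 ± 0.46 (SD, n = 19) without, a difference of 0.20 (permutation p = 0.208 over the 34 dogs). The part of these cells in the members' values was not tested.

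The profiles most like 3 members were listed by Spearman's rho of the same residuals, as a description over 34 dogs. For JCHAIN they were IGLL5 (0.954), IGLL1 (0.946) and IGLL3P (0.946), which lie in the antibody light chain region and share bases among their features, then SLAMF7 (0.883), a surface receptor of plasma cells and NK cells, and POU2AF1 (0.852), a B cell transcriptional co-activator. IGHV1OR15-3 and LOC642131, with identical counts, and MIR650 followed at 0.799, 0.799 and 0.791. Their log2 fold changes in CHF ran from -0.75 for IGLL5 to -0.16 for SLAMF7, and none was called (edgeR, smallest FDR 0.913).

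For CD3E the most alike were SEPTIN1 (0.753), nearly all of whose bases lie in another feature, LCK (0.723), NRROS (0.715), CD3D (0.701), CD79A (0.695), MKNK1 (0.693), IL7R (0.691), the receptor for interleukin 7 on T cells, and SYTL3 (0.691). For MS4A1 they were PVRIG (0.677), PRKCB (0.614), CD96 (0.607), IL5RA (0.583), GPR132 (0.566), SPO11 (0.557), HDC (0.555) and ITGAL (0.553). PVRIG and CD96 are receptors of T and NK cells, and none of the 8 is in the list of B cell genes used here. PVRIG had a median of 1.5 counts and shares 60.1% of its bases with features of other symbols, and GPR132 shares 100%. MS4A1 itself had 16 dogs at 0 counts, whose values were tied within each group of status and sex. A rho above 0.5 was reached by 432 features with JCHAIN, 191 with CD3E and 36 with MS4A1.

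CHF and sex were then considered together. No member was called between males and females (edgeR, smallest unadjusted p = 0.270, for CD79B), where 0.143% of all features had an FDR below 0.1 and 2.98% an unadjusted p below 0.05. In the test of a different CHF effect in the sexes, 0 members and 0% of all features had an FDR below 0.1 (edgeR), and 6.02% of all features had an unadjusted p below 0.05, 3.16% in the direction of a lower CHF effect in males. DESeq2 called 3 features, none of them a member. At this unadjusted level edgeR gave 3 of the 5 T cell genes, each with a CHF effect that was higher in females, and none of the 4 B and plasma cell genes.

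In females, CD2 had a median of 4.01 CPM with CHF (1.85 to 9.38) and 2.43 CPM without (0.882 to 4.09). In males it was 2.84 CPM with CHF (1.06 to 4.65) and 3.10 CPM without (0.868 to 9.95). The log2 fold change was 1.05 in females and -0.42 in males, and their difference in the joint fit was -1.46 with a 95% interval of -2.56 to -0.36 (edgeR, p = 0.0110, FDR = 0.815). LCK differed in the same direction, with 0.88 in females and -1.02 in males, a difference of -1.89 with an interval of -3.38 to -0.39 (edgeR, p = 0.0150, FDR = 0.815). CD3D had 1.96 in females and -1.89 in males, a difference of -3.84 with an interval of -6.74 to -0.95 (edgeR, p = 0.0109, FDR = 0.815). CD3E had 1.23 and -0.69, a difference of -1.92 with an unadjusted p of 0.0825. JCHAIN had -0.78 and -1.05 (difference -0.27, p = 0.755).

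The differences between the sexes rested in part on single dogs. Without CAV743, the 10y-noCHF male that was highest for CD3D, CD3E, CD2 and LCK, the difference was -2.62 for CD3D (edgeR, p = 0.0606), -0.94 for LCK (p = 0.117), -0.50 for CD3E (p = 0.590) and -1.09 for CD2. CD2 alone had an unadjusted p below 0.05 with each of the 34 dogs left out, at most 0.0477, without CAV1872. Without CAV614 and CAV1047 the differences were larger, -1.77 for CD2, -2.28 for LCK, -2.67 for CD3E and -4.26 for CD3D, with unadjusted p between 0.00291 and 0.0150 and an FDR of 0.515.

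**Figure D5:**
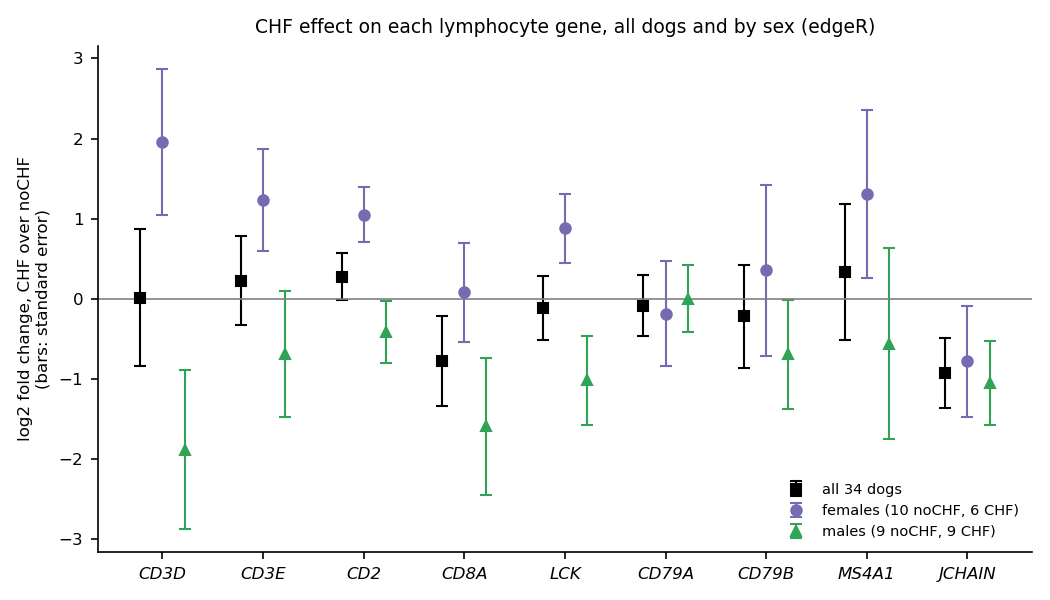
Log2 fold change of 10y-MMVD-CHF over 10y-noCHF for each gene, with its standard error (edgeR), in all 34 dogs (black squares), in females alone (violet circles) and in males alone (green triangles). The values of CD3D, CD3E, CD2 and LCK are above 0 in females and below 0 in males, while JCHAIN is below 0 in both.

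Wider lists of lymphocyte genes gave no call between the groups either. Of 21 further genes of the T cell receptor and its signalling, 11 were higher and 10 lower in CHF around a median of 0.01 on the log2 scale. The smallest p were those of TESPA1, an adaptor of receptor signalling, at 0.55 (p = 0.110), CD4, the co-receptor of helper T cells, at 0.77 (p = 0.128), and CD5, an inhibitory receptor, at -0.29 (p = 0.214). Of 20 T cell transcription factors and homing receptors, 13 were higher and 7 lower. IKZF3 (Aiolos) had a log2 fold change of 0.94 (edgeR, p = 0.0389, FDR = 0.778), with 2.55 ± 4.76 CPM with CHF and 1.22 ± 0.850 without. DESeq2 gave 0.93 for IKZF3 and no p-value. GATA3 and CXCR3 had 0.41 and 0.63.

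Regulatory and checkpoint genes had the highest median of these lists, 0.42, with 12 of 16 higher in CHF, where 10295 of all 19568 features were higher. At an unadjusted p below 0.05, 2 of the higher and 1 of the lower genes passed, against 6.31% of all features, and 0 were called. TNFRSF4 (OX40) had a log2 fold change of 1.62 (edgeR, p = 0.0416, FDR = 0.778) on 168 counts in all, and IL2RA, the high-affinity interleukin 2 receptor chain, had 0.71 (p = 0.0460, FDR = 0.779). The feature of IL10 had -0.35 (p = 0.0335, FDR = 0.757), but all of its bases lie within other features, among them IL19, and the reads cannot be assigned to one of them. Of 19 cytotoxic and NK cell genes, 10 were higher and 9 lower. KLRG1, an inhibitory receptor of effector T and NK cells, was at 8.10 ± 2.42 CPM with CHF and 5.80 ± 2.46 without (log2 fold change 0.47, edgeR, p = 0.0140, FDR = 0.628). CCL5 had -0.36 and FASLG 0.92.

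Of 24 B cell genes, 12 were higher and 12 lower, with a median of -0.02 and none at an unadjusted p below 0.05. CD22, an inhibitory co-receptor of B cells, had 0.28 (p = 0.180), while CR2 (-0.98) and SPIB (-0.90) lie wholly within features of other symbols. Of 14 plasma cell genes, 4 were higher and 10 lower, with a median of -0.05. TNFRSF17, the receptor BCMA of plasma cells, had -1.62 on 126 counts in all (edgeR, p = 0.0516, FDR = 0.786), the same sign as JCHAIN. SEC11C and HERPUD1, of the secretory pathway, had -0.10 and -0.08.

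Among 16 chemokines and adhesion genes that draw or hold lymphocytes, 7 were higher and 9 lower. CCL19, a ligand of the homing receptor CCR7, was at 0.451 ± 0.365 CPM with CHF and 0.170 ± 0.143 without, a log2 fold change of 1.41 with a standard error of 0.44 (edgeR, p = 0.00289, FDR = 0.427). CXCL13, which attracts B cells, had -2.02 on 158 counts in all (p = 0.0153, FDR = 0.635). VCAM1, an adhesion molecule of endothelium and stroma, had 301 ± 130 CPM with CHF and 230 ± 86.2 without (log2 fold change 0.40, p = 0.0462, FDR = 0.779). None of these differences passed the threshold.

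The CHF effect was also lower in males for other T cell genes at the unadjusted level, where 3.16% of all features passed in this direction, and these genes were named after their values were seen. It was negative in 18 of 21 genes of T cell receptor signalling, with a median of -0.53 against -0.0028 over all features, and p was below 0.05 for ZAP70 (-1.95), a kinase of that receptor. Of 20 transcription factors and homing receptors, 4 had p below 0.05, IKZF3 (-1.89), IL7R (-1.70), CCR7 (-3.11) and CCR4 (-3.30). Of 16 regulatory genes 2 had, IL2RB (-2.30) and HAVCR2 (-1.75). None had an FDR below 0.1 (smallest 0.815). Without CAV743 the first and second of these lists had 0 such genes and the third 2, while all features had 714 in place of 619. Without CAV614 and CAV1047 they had 7, 6 and 6, and all features had 906.

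This direction was not particular to T cell genes. It was negative in 6 of 6 pan-leukocyte markers, with a median of -0.49, in 10 of 12 macrophage markers, with a median of -0.28, and in 9 of 9 valve interstitial markers, with a median of -0.25 and 3, COL1A1, COL1A2 and COL3A1, at an unadjusted p below 0.05. Of 24 B cell genes 15 were negative, and BLNK (-0.56) and BTK (-0.61), of B cell receptor signalling, had p below 0.05 in this direction, while FCER2 (2.57) had it in the other. Whether the lists differ from each other was not tested.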

How the data were processed

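RNA was sequenced from the mitral valves of 34 dogs, 1 library each. Reads were aligned by the authors to canFam4 (STAR) and the deposited values are unnormalized read counts from featureCounts 2.0.3, per the labels and the file header. Both reads of a pair were counted, without strand and on each feature that a read overlapped, and 78.9% of the members' counts above 0 were even. Overlapping and antisense features can thus share reads. The table has 35 columns of dogs, and 1, of no labelled sample, was not used. Groups came from the sample titles. Nothing in the labels ties a library to a litter or a run, and p-values measure the spread between dogs.

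The filter was a summed count of 100 or more. Tests used edgeR 4.0.16 (quasi-likelihood, R 4.3.3) with TMM factors and a term for sex, and the threshold was an FDR (Benjamini-Hochberg) of 0.1. The interaction of CHF and sex was fitted the same way. Standard errors and 95% intervals were derived from the test statistic and are approximate. Log2 CPM used a prior count of 2. Correlations used residuals after the means of status and sex, permuted within those 4 groups 100000 times (numpy 2.4.6), and were adjusted over 36 pairs because CD3G has no feature. Alternatives were DESeq2 1.42.0 (the tool of the study), limma 3.58.1 voom with sample weights, RLE and upper-quartile normalization, other filters, no sex term, marker covariates, each sex alone, the XenoRefSeq features and leaving out dogs. The CHF tests of edgeR, DESeq2 and voom, the edgeR interaction test and the correlation test were checked on simulated data. The correlation check used normally distributed values without ties. The comparison of males with females, the permutation of marker lists, Dixon's ratio and the DESeq2 interaction were not checked in this way.

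The members and lists were chosen with earlier results of these data known. Named are all members, in each wider list the features with an FDR below 0.1 or else the 3 with the smallest p, and the 8 symbols with the highest rho for CD3E, MS4A1 and JCHAIN. Counts of list genes without single dogs, and the interaction without dogs, were added after the data were seen. Gene sequences were not used here. The result of 1 gene of a wider list is left out and not reported here.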

Additional observations from a re-analysis of the deposited data

Results flagged for a closer look

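Dixon's ratio was computed for the highest and lowest dog of each member in the 4 groups of status and sex, 36 tests of log2 CPM in which chance alone gives about 1.8 flags. It exceeded the critical value in 2, both for CAV743 among the 9 males of the 10y-noCHF group. For LCK the gap to the next dog was 0.597 of the group's range, with 636 counts and 10.99 CPM in CAV743 against 102 counts and 1.80 CPM in CAV444. For CD3D the gap was 0.535 of the range, with 157 counts and 2.71 CPM in CAV743 against 34 counts and 0.438 CPM in CAV749. The 2 flags concern 1 dog and genes that vary together (r = 0.554), so they are not separate events.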

How the results depend on the processing

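No member was called under any alternative run, and JCHAIN stayed lower in CHF under each of them, between -1.05 and -0.78 outside the fits that left out single dogs. Of all features, 23 were called for CHF, against 64 with DESeq2, 13 without the sex term, 0 in females only and 0 in males only (at an unadjusted p below 0.05 edgeR gave 1234 in all dogs), and 8 to 28 with single dogs left out (8 without CAV1519, 28 without CAV743). DESeq2 called 3 features for the interaction, where edgeR called 0. Without CAV614 and CAV1047, 17 in place of 26 pairs of members passed, and 3 in place of 6 relations with markers. Signs turned for several log2 fold changes, none of them called, CD8A (-0.78 in the main comparison) and MS4A1 (0.34) included. With voom they were -0.14 for CD3D, 0.16 for LCK and 0.23 for CD79B. In females only they were 0.078 for CD8A, 0.88 for LCK and 0.35 for CD79B. In males only they were -1.89 for CD3D, -0.69 for CD3E, -0.42 for CD2, 0.0019 for CD79A and -0.56 for MS4A1. CD3D had -0.015 with the cardiomyocyte covariate, and in the comparison of males with females 0.0090 with DESeq2. CD79A had 0.0088 without CAV614 and CAV1047, and 0.091 from its XenoRefSeq feature. With single dogs left out, the CHF values ran from -0.53 to 0.65 for CD3D, -0.26 to 0.97 for CD3E, -0.41 to 0.39 for LCK and -0.31 to 0.027 for CD79A, lowest in all 4 without CAV1872. The difference between the sexes ran from -0.21 to 0.76 for CD79A and -0.82 to 0.17 for JCHAIN, and for CD79A it was -0.077 without CAV614 and CAV1047. The causes were not tested. No paired analysis was possible because the groups hold different dogs. Counts were lowest for CD3D, CD8A, CD79B and MS4A1, each with a median of at most 10 counts per dog.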

Other observations

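CD8A and MS4A1 are listed with exon and XenoRefSeq features that gave similar profiles across the 34 dogs (r = 0.919 and 0.914). CD79A did so too (0.918), and CD3E did not (0.077). For CD79A the XenoRefSeq feature held 0.784 times the counts of the exons, and for MS4A1 the XenoRefSeq feature held 1.94 times as many.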
